A study of Homo sapiens with 5 samples.

Results

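The transcripts of 10 genes of fibroblast growth factor (FGF) signaling were followed through the differentiation of human pluripotent stem cells into gonadotropin-releasing hormone (GnRH) neurons. The members are 7 secreted ligands (FGF2, FGF3, FGF8, FGF9, FGF17, FGF18 and FGF19) and 3 receptors (FGFR1, FGFR2 and FGFR3). They were chosen by gene symbol with earlier results of these data known. Shares of members set against all genes below thus compare a chosen set with an unchosen one. Each member matched 1 row, with the same Ensembl identifier in all 8 libraries. The early libraries listed 36601 genes and the late ones 33538.

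All cells were the wild-type embryonic stem cell line WA09, profiled by droplet-based single-cell RNA sequencing of transcript 3′ ends. D0 cells were taken before differentiation, although the pool they were run in is labelled neural progenitor as a whole. D5_dSMADi and D10_dSMADi cells had received dual-SMAD inhibition (dSMADi), which blocks BMP and TGFβ signaling so that stem cells become neural progenitors (NPs), and D5_XAV939 and D10_XAV939 cells had in addition received 10 µM XAV939, an inhibitor of Wnt signaling. D22, D24 and D26 cells had received dSMADi without XAV939, then FGF8 protein from day 11 to day 20, with freezing and thawing at day 17, and from day 21 the Notch inhibitor DAPT, which makes progenitors exit the cell cycle. Because every condition was represented by a single library, differences could not be tested, and the intervals given are exact 95% intervals that cover counting error only. The FGF8 protein added to the medium is not seen by the assay, which counts transcripts made by the cells.

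After removal of poor cells the libraries held 1009 cells at D0, between 2168 and 2815 in each D5 and D10 condition, 9523 at D22, 9107 at D24 and 11056 at D26, with 58073098 to 130440502 unique molecular identifiers (UMIs) in a library. The 5 libraries of D0 to D10 were tagged, run as 1 pool of droplets and separated by tag. The tag of the labelled condition was therefore the most abundant in 100% of the barcodes of each. None of their cells shared a barcode, which follows from the same separation, and neither value tests the labels. Pairs of the D22, D24 and D26 libraries shared 26 to 32 barcodes. The labels fitted the markers: POU5F1, a pluripotency factor, was at 1244 CPM (UMIs of the gene per 1000000 UMIs of the group) at D0 and at most 26.6 CPM later, and STMN2, a neuronal gene, was at 9045 CPM at D24 and 8093 CPM at D26. Summed markers of endothelium and endoderm were below 1 CPM in every library, those of mesoderm at most 10.3 CPM (D26), of neural crest at most 37.8 CPM (D0) and 2.28 CPM later, and of non-neural ectoderm 748 CPM at D0 and at most 151 CPM later. At D0 the crest sum came from FOXD3, with SOX10 and TFAP2B below 1 CPM. The ectoderm sum at D0 came from EPCAM and KRT18, with TFAP2A below 1 CPM.

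FGF ligands are secreted proteins that bind receptor tyrosine kinases on the cell surface together with heparan sulfate, and signal through the MAP kinase cascade, whose feedback genes such as DUSP6 and the SPRY genes are widely read as a measure of its activity. In the embryo FGF8 and its close relatives FGF17 and FGF18 are made by the rostral midline of the forebrain and pattern it. FGF8 and FGFR1 are needed for GnRH neurons to form, and mutations in either cause congenital GnRH deficiency in humans. FGF3 and FGF19 belong to other subfamilies: FGF3 acts in ear, tooth and forebrain development, and FGF19 is best known as a hormone of the gut but is also made in the embryonic brain.

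The 10 members fell into early and late genes. FGF2, FGFR1, FGFR2 and FGFR3 were at their highest level in a D0, D5 or D10 library, as was FGF8, whereas FGF3, FGF9 and FGF19 were highest at D26, and FGF17 and FGF18 at D22. Only FGFR1 was at 10 CPM or more in all 8 libraries. Because D10 and D22 differed in run, Cell Ranger version and gene annotation, their values are set side by side and no ratio between them is given. A level here pools the UMIs of all cells of a library, so that deeper cells weigh more. In a level alone, fewer expressing cells and less RNA per cell cannot be told apart.

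**Figure D1:**
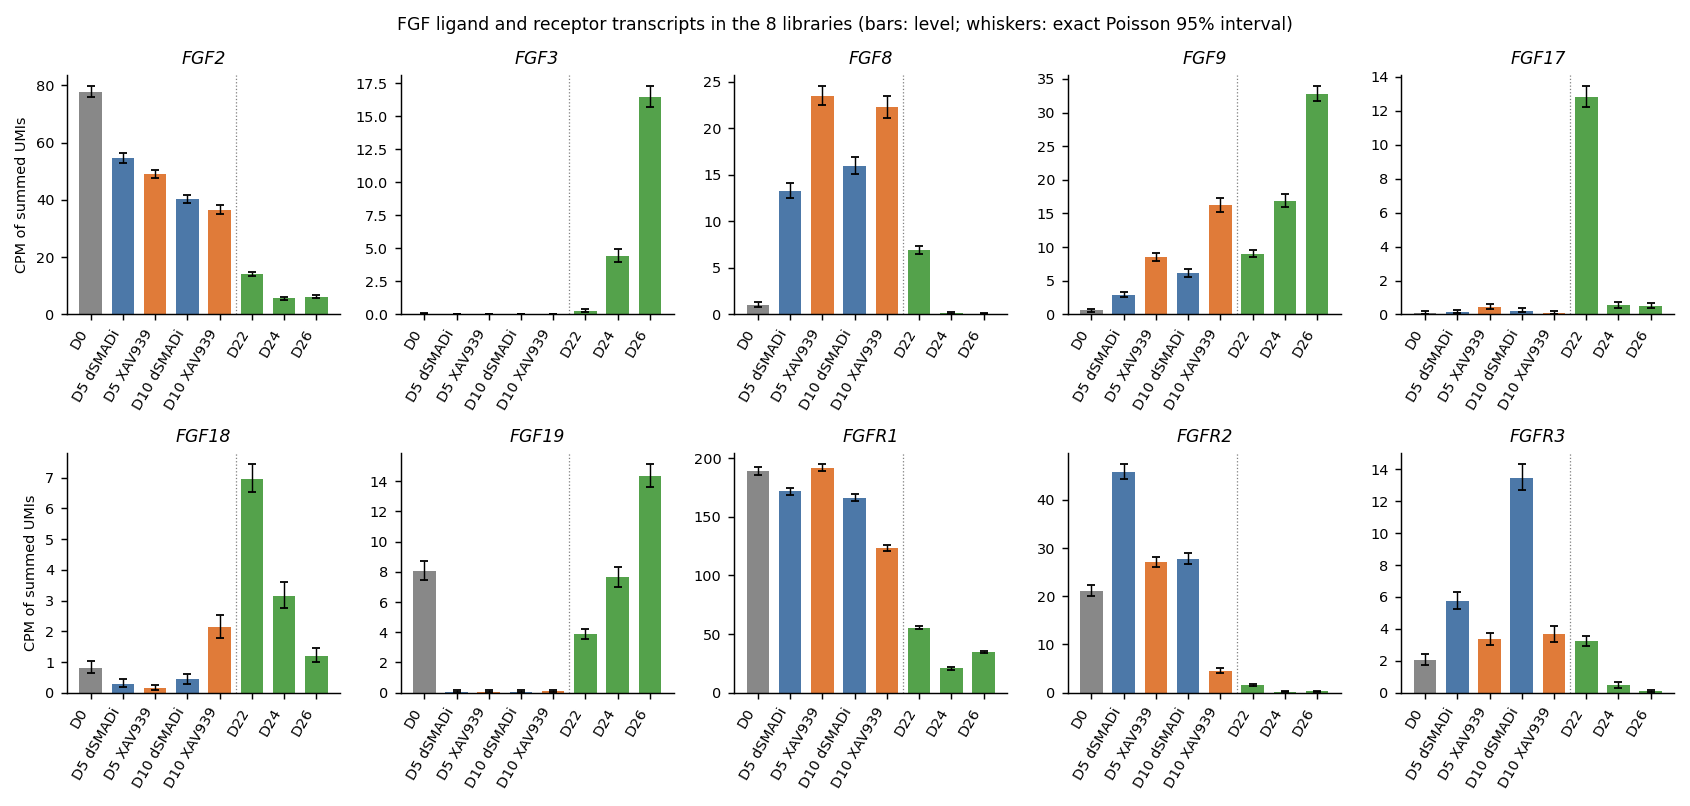
Level of each of the 10 members in the 8 libraries, in CPM of summed UMIs (vertical axes, from 0, a separate scale for each gene), with bars for libraries and whiskers for exact Poisson 95% intervals. Grey is D0, blue dSMADi, orange dSMADi with XAV939 and green D22 to D26, and the dotted line separates the tagged pool from the later libraries. FGF3 reached 16.5 CPM at D26, FGF17 12.8 CPM at D22, and FGFR2 fell from 45.9 CPM at D5_dSMADi to 0.261 CPM at D26.

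FGF2, a ligand that keeps stem cells undifferentiated and drives progenitor division, was at 77.8 CPM at D0, 54.6 at D5_dSMADi, 49.1 at D5_XAV939, 40.4 at D10_dSMADi, 36.5 at D10_XAV939, 14.1 at D22, 5.57 at D24 and 6.24 at D26. In this order only the last pair of neighbors, D26 and D24, had overlapping intervals. FGF2 was the ligand found in most cells early on, with a UMI in 98.4% of D0 cells, and in 53.4% once all cells had been sampled down to 10000 UMIs. Among the marker classes of D22 cells described further on, except 6 GNRH1-high cells with no UMI of it, its level was between 9.24 and 17.4 CPM. FGF2 lies at chr4:122826682-122898236, where NUDT6 and ENSG00000273007 overlap it on the opposite strand, and the 3′ kit keeps strand. The gene ENSG00000240775 overlaps FGF2 on the same strand, where strand does not separate their reads.

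FGF8, which is made at the rostral end of the neural plate, was at 1.05 CPM at D0, 13.3 at D5_dSMADi, 23.5 at D5_XAV939, 16.0 at D10_dSMADi, 22.3 at D10_XAV939, 6.94 at D22, 0.157 at D24 and 0.0804 at D26. It was thus 12.6-fold higher at D5 than at D0 without XAV939 (log2 ratio 3.66, interval 3.33 to 4.00) and 44.2-fold lower at D24 than at D22. The D24 and D26 libraries held 11 and 8 FGF8 UMIs in all, each in a different cell. FGF17 showed a narrower window, with at most 0.461 CPM from D0 to D10, 12.8 CPM (12.2 to 13.5) at D22, 0.527 at D24 and 0.493 at D26.

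FGF18, the remaining member of the FGF8 subfamily, was at 0.817 CPM at D0, 0.289 at D5_dSMADi, 0.150 at D5_XAV939, 0.432 at D10_dSMADi, 2.14 at D10_XAV939, 6.97 at D22, 3.16 at D24 and 1.21 at D26. FGF9, a ligand that in the nervous system is made largely by neurons, was at 0.593 CPM at D0, 2.92 at D5_dSMADi, 8.52 at D5_XAV939, 6.17 at D10_dSMADi, 16.2 at D10_XAV939, 8.99 at D22, 16.9 at D24 and 32.8 at D26. FGF9 was the sole ligand that was higher at each later day, both from D0 to D10 with or without XAV939 and from D22 to D26. At D26 it was 1.94-fold higher than at D24 (log2 ratio 0.96, interval 0.86 to 1.05), short of the 2-fold limit used for counting changes below.

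FGF3 was almost silent early. It had 1 UMI in each of D0, D5_dSMADi and D5_XAV939, and 0 UMIs in D10_dSMADi and D10_XAV939, where 3 counts would be 0.0381 and 0.0517 CPM. It was then at 0.276 CPM at D22, 4.42 at D24 and 16.5 at D26, so that it was 16.0-fold higher at D24 than at D22 and 3.73-fold higher at D26 than at D24. FGF19 was at 8.07 CPM at D0, between 0.0635 and 0.0861 CPM in the 4 libraries of D5 and D10, and at 3.86 at D22, 7.65 at D24 and 14.3 at D26. In the shared droplet run it had 613 UMIs in D0 cells against 5 or 6 in each D5 and D10 condition, a 107-fold fall from D0 to D5_dSMADi.

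FGF3 and FGF19 are neighbors on the same strand of chromosome 11 (GRCh38, GENCODE v44). FGF19 lies at chr11:69698238-69704022 and FGF3 at chr11:69809968-69819416, 106 kb apart, with FGF4 between them, and no annotated gene overlaps either. Of the other members, FGF8 lies at chr10:101770109-101780371, FGF9 at chr13:21671073-21704498, FGF18 at chr5:171419647-171457626, FGFR2 at chr10:121478332-121598458 and FGFR3 at chr4:1793293-1808872. The FGF3 promoter is shown because this gene went from 0 UMIs at D10 to 16.5 CPM at D26, and because the cells that carried it expressed DLX homeobox genes (given further on), a class of factors whose DNA-binding domain favors sequences with a TAATT core. The window runs from 250 bases before to 50 bases after the RefSeq start site at chr11:69819367-69819666, minus strand, build GRCh38.p14, with the matches to TAATTN, searched on both strands, in capitals:
FGF3: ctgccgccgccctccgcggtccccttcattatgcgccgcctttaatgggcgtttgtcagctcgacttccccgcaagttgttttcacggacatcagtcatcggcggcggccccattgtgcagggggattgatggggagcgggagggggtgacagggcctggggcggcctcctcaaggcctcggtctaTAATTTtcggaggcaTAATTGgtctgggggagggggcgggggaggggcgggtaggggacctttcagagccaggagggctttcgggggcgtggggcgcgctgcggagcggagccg
The 2 matches begin 64 and 49 bases before the start site and do not overlap. Such a match occurs in 24.7% of the 35116 promoter windows of 300 bases in the same RefSeq table, so it is common, and whether a factor binds there was not measured. The table held a window for 5 of the 10 members (FGF2, FGF3, FGF18, FGFR2 and FGFR3); among the windows of the other 4, 1 of the 5 FGFR2 windows had a match.

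FGFR1, a receptor whose mutations cause congenital GnRH deficiency, was at 189 CPM at D0, 172 at D5_dSMADi, 192 at D5_XAV939, 166 at D10_dSMADi, 123 at D10_XAV939, 55.3 at D22, 20.8 at D24 and 34.6 at D26. FGFR2, a receptor of epithelia and neural progenitors, was at 21.2 CPM at D0, 45.9 at D5_dSMADi, 27.1 at D5_XAV939, 27.8 at D10_dSMADi, 4.55 at D10_XAV939, 1.61 at D22, 0.214 at D24 and 0.261 at D26. FGFR3, which is expressed in ventricular zone progenitors and in the caudal part of the forebrain, was at 2.05 CPM at D0, 5.77 at D5_dSMADi, 3.36 at D5_XAV939, 13.5 at D10_dSMADi, 3.67 at D10_XAV939, 3.21 at D22, 0.456 at D24 and 0.111 at D26. All 3 receptors were lower at D24 than at D22, by 2.66-fold for FGFR1, 7.53-fold for FGFR2 and 7.04-fold for FGFR3, and FGFR1 was 1.66-fold higher at D26 than at D24 (log2 ratio 0.74, interval 0.65 to 0.82).

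For counts, a gene was called changed where it differed at least 2-fold with its whole interval on one side of no change, among genes with more than 3 UMIs in at least 1 group. Between D0 and D5 without XAV939, FGF8, FGF9, FGFR2 and FGFR3 rose and FGF18 and FGF19 fell, 6 of 9 members tested, against 34.2% of all genes called in either direction. FGF18 did not pass with cells sampled down to 10000 UMIs, where its log2 ratio was -0.58. Between D5 and D10 without XAV939, FGF9 (2.11-fold) and FGFR3 (2.34-fold) rose and none fell, against 14% of all genes. With the median gene set to no change, FGF9 was at 0.96 on the log2 scale and no longer passed. Between D22 and D24, FGF3 rose and 7 members fell (FGF2, FGF8, FGF17, FGF18 and the 3 receptors), against 28.2% of all genes, while FGF19 was just short of the limit at 1.99-fold higher. With cells sampled down to 1500 UMIs, FGF18 (log2 ratio -0.77 in place of -1.14) did not pass. Between D24 and D26, FGF3 rose and FGF18 and FGFR3 fell, 3 of 10 members against 15.3% of all genes. The D22 to D24 interval also held the change in cell makeup: the summed level of 6 genes of dividing cells went from 2282 to 122 CPM and that of 5 neuronal genes from 1832 to 10375 CPM, and their part in the members' fall was not tested.

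The further genes of the pathway changed in both directions with the days. They were a list of 44 other secreted FGFs, receptors, co-receptors, intracellular homologs, binding and matrix factors, and docking and feedback genes. The list was chosen with earlier results of these data known. From D0 to D5 without XAV939, 10 of 39 tested rose and 15 fell, against 34.2% of all genes in either direction, with a median log2 ratio of -0.18 against -0.16 over genes at 50 CPM or more. Of the 15 that fell, 6 were other secreted FGFs. Of the 12 docking and feedback genes, 3 rose and 3 fell. Those that fell were DUSP6 (11.6 CPM after 135), SPRY4 (2.67 after 36.2) and ETV4 (4.34 after 64.7). FGFBP3, a carrier that releases FGFs from the matrix, also fell (17.7 after 166), while GPC3, a heparan sulfate carrier, rose (1080 after 125). From D5 to D10 without XAV939, 4 of 36 rose, among them SPRY1 (97.8 CPM after 48.4) and FLRT3 (40.4 after 8.88), and 2 fell, among them GPC4 (21.8 after 50.7), a share near the 14% of all genes, with a median of 0.48 against 0.11. From D22 to D24, 8 of 37 rose and 16 fell, against 28.2% of all genes in either direction, with a median of -0.77 against -0.01. Those that fell included SPRY1 (69.1 CPM after 459), DUSP6 (7.84 after 22.5) and ANOS1, the gene of the matrix protein anosmin (0.927 after 19.5). From D24 to D26, 5 of 37 rose and 7 fell, against 15.3% of all genes in either direction, with a median of 0.06 against 0.14. SPRY1 fell again (15.1 CPM after 69.1), and SPRY2, which had risen from D22 to D24, fell (10.99 after 28.2).

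XAV939 was compared with dSMADi alone at D5 and at D10 to ask how Wnt inhibition alters the progenitors. FGF9 was higher with XAV939 at both days, at 8.52 CPM (7.92 to 9.16) against 2.92 (2.56 to 3.32) at D5 and 16.2 (15.2 to 17.3) against 6.17 (5.63 to 6.74) at D10, which is 2.91-fold and 2.63-fold. FGF8 was higher by 1.77-fold at D5 (log2 ratio 0.82, interval 0.71 to 0.93) and 1.39-fold at D10 (0.48, interval 0.36 to 0.59), below the 2-fold limit at both days. FGF2 was lower by 1.11-fold at both days, with intervals that left out no change and with no replicate by which to judge a difference of this size.

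FGFR2 and FGFR3 were lower with XAV939 at both days. FGFR2 was lower with XAV939 by 1.69-fold at D5, at 27.1 CPM against 45.9, and by 6.12-fold at D10, at 4.55 CPM (4.01 to 5.13) against 27.8 (26.7 to 29.0). FGFR3 was lower by 1.72-fold at D5, at 3.36 CPM against 5.77, and by 3.68-fold at D10, at 3.67 CPM (3.19 to 4.19) against 13.5 (12.7 to 14.3). FGFR1 was 1.12-fold higher at D5 and 1.35-fold lower at D10. With cells sampled down to 10000 UMIs, the share with an FGFR2 UMI at D10 was 23.6% without and 4.06% with XAV939.

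**Figure D2:**
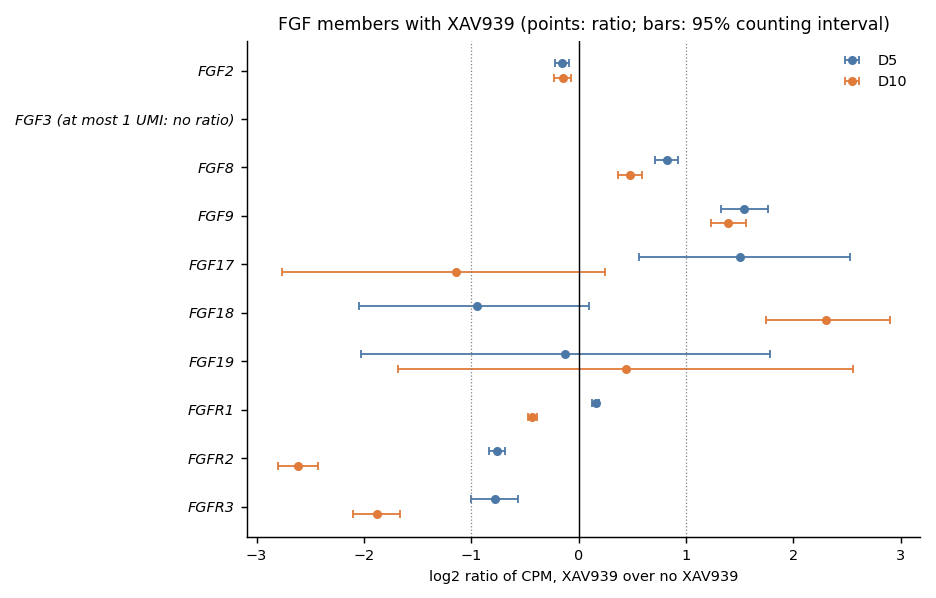
Log2 ratio of CPM with XAV939 over without it (horizontal axis) for each member at D5 (blue) and D10 (orange), with 95% counting intervals; dotted lines mark 2-fold. FGF9 lies at 1.54 and 1.40, FGFR2 moves from -0.76 to -2.61 and FGFR3 from -0.78 to -1.88, while FGF3 had too few UMIs for a ratio.

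At D5, 2 of 9 members tested were called higher with XAV939 (FGF9 and FGF17, the latter from 13 and 40 UMIs) and none lower, against 2.2% and 2.31% of all genes. At D10, FGF9 and FGF18 were called higher and FGFR2 and FGFR3 lower, against 3.1% and 5.15% of all genes. Genes of dividing cells were somewhat higher with XAV939, at 2503 against 2053 CPM at D5 and 3234 against 2645 CPM at D10 for the 6 genes together. Within cells that had at least 1000 CPM of these genes, a limit chosen after the values were seen, the D10 log2 ratio was 1.56 for FGF9, -2.55 for FGFR2 and -2.03 for FGFR3, close to the values in all cells, while FGF18 was at 1.04, against 2.31 in all cells.

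FGF18 was different. It was 4.95-fold higher with XAV939 at D10, at 2.14 CPM (1.78 to 2.55) against 0.432 (0.299 to 0.603), but 109 of its 124 UMIs lay in 65 cells that had at least 2000 CPM of the 5 neuronal genes STMN2, DCX, TUBB3, MAPT and ELAVL4. Such cells were 3.00% (2.32% to 3.81%) of the XAV939 library and 0.704% (0.410% to 1.12%) of the other, where 17 of them held 10 of 34 UMIs. In them FGF18 was at 68.2 CPM with XAV939 and 28.4 CPM without it, from those few UMIs. In the remaining cells it was at 0.266 CPM with XAV939 and 0.306 CPM (0.196 to 0.455, 24 UMIs) without it, an interval that holds both levels. The log2 ratio became -0.20. The 17 cells with 3 or more FGF18 UMIs were led by NEFM, STMN2, ROBO3, SST and CNTN2, genes of postmitotic neurons.

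Of the 44 further genes of the pathway, 34 could be compared at D5, of which 6 were higher with XAV939 and none lower, against 2.2% and 2.31% of all genes, with a median log2 ratio of 0.19 over the list against 0.01 over genes at 50 CPM or more. They were FGFBP3 (43.7 against 17.7 CPM), the feedback genes SPRY1 (107 against 48.4), DUSP6 (26.04 against 11.6) and ETV5 (65.9 against 25.5), and at lower levels SPRY4 and FGF10, named after their values were seen. At D10, 37 could be compared, of which 3 were higher and 3 lower, against 3.1% and 5.15% of all genes, with a median of -0.01 against 0.03. FGFBP3 (74.1 against 24.7 CPM), SPRY2 (95.1 against 26.5) and SPRY4 (7.15 against 1.61) were higher with XAV939, and GPC3 (426 against 1565), DUSP6 (8.82 against 18.2) and FGF11 (1.498 against 3.20) were lower. SPRY4 and FGF11 were again named after their values were seen. DUSP6 thus lay on opposite sides at D5 and D10, while FGFBP3 and SPRY4 were higher at both.

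The late libraries allow GnRH neurons to be compared with the cells around them. GNRH1-high cells were those in which GNRH1, the hormone gene, was at 3000 CPM or more of the UMIs of the cell, and they were 345 of 9107 cells at D24 and 999 of 11056 at D26, with 41 and 157 cells within 1.5-fold of the limit. FGF19 was at 143 CPM (438 UMIs) in GNRH1-high and 1.48 CPM (99 UMIs) in other cells at D24, and at 89.7 CPM (931 UMIs) and 5.57 CPM (496 UMIs) at D26, which is 97.0-fold and 16.1-fold. FGF3 was at 79.4 CPM (243 UMIs) and 0.999 CPM (67 UMIs) at D24, and at 104 CPM (1083 UMIs) and 6.25 CPM (557 UMIs) at D26, which is 79.6-fold and 16.7-fold. The intervals of the 2 groups did not come near each other for either gene at either day. Within GNRH1-high cells FGF3 was 1.31-fold higher at D26 than at D24 (log2 ratio 0.39, interval 0.19 to 0.60) and FGF19 1.60-fold lower (-0.68, interval -0.84 to -0.51); with the median gene set to no change these were 0.21 and -0.85.

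The other members differed less. FGF9 was at 31.1 CPM in GNRH1-high and 16.3 in other cells at D24, and at 41.0 and 31.9 at D26, 1.91-fold and 1.29-fold higher. FGFR1 was at 28.4 and 20.4 CPM at D24 and at 50.1 and 32.8 at D26, 1.39-fold and 1.53-fold higher, and so was the one receptor with an appreciable level in these cells. FGF2 did not differ detectably, with 6.21 against 5.54 CPM at D24 and 5.59 against 6.32 at D26 and intervals of the log2 ratio from -0.58 to 0.83 and from -0.59 to 0.21. FGF18 was lower at D24, with 1 UMI (0.327 CPM) against 3.29 CPM (log2 ratio -3.33, interval -8.64 to -0.84), and at D26 was at 0.578 against 1.28 CPM, an interval that includes no change (-2.62 to 0.02). FGF8, FGF17, FGFR2 and FGFR3 had between 0 and 7 UMIs in GNRH1-high cells at each day.

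**Figure D3:**
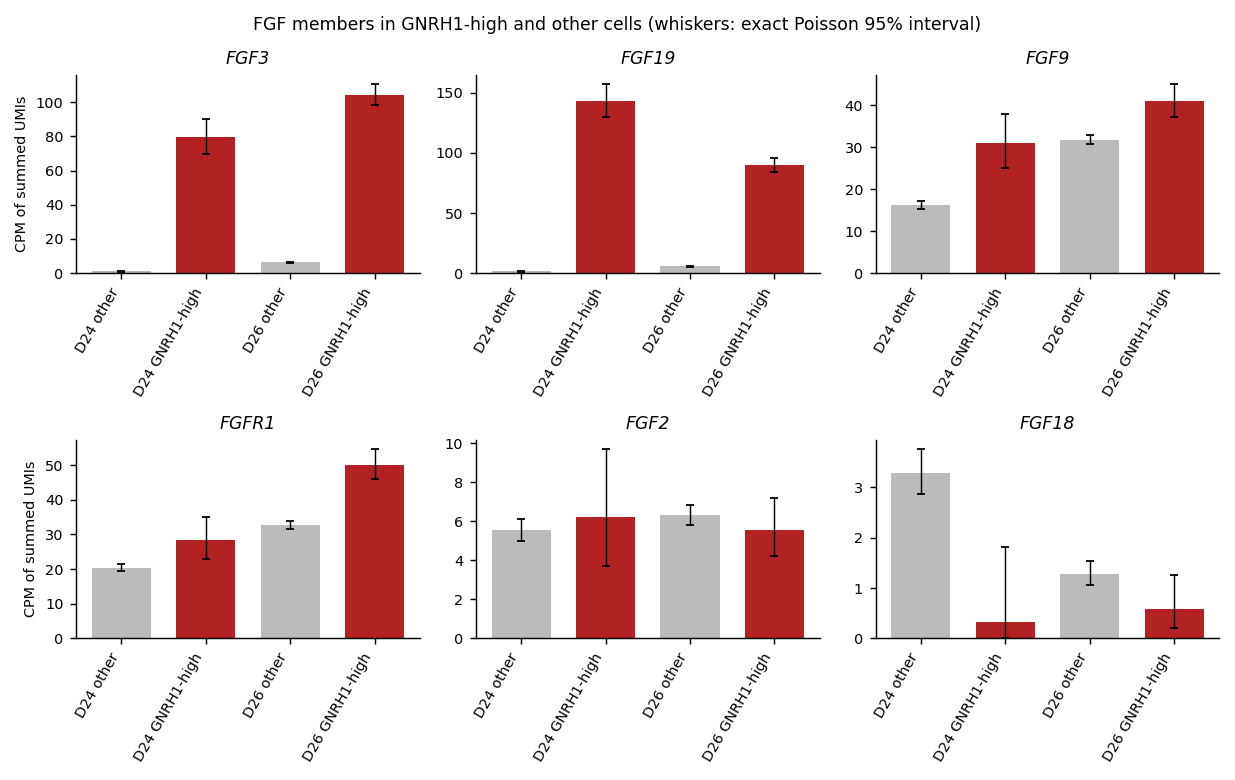
Level of 6 members in other cells (grey) and GNRH1-high cells (red) at D24 and D26, in CPM of summed UMIs (vertical axes from 0, a separate scale for each gene); whiskers are exact Poisson 95% intervals. FGF3 and FGF19 stand at 79.4 to 143 CPM in GNRH1-high cells against 0.999 to 6.25 CPM in the others, whereas FGF2 overlaps.

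Thus FGF3 and FGF19 were called higher in GNRH1-high cells at both days, 2 of 10 members against 2.31% of all genes at D24 and 2.7% at D26. FGF18 was called lower at D24 and no member was at D26, against 4.67% and 3.93% of all genes. GNRH1-high cells also differed in lineage genes and depth. The 6 genes of the DLX GABAergic lineage (DLX1, DLX2, DLX5, DLX6, GAD2 and SLC32A1), all detected on both sides, summed to 781 against 31.9 CPM at D24 and 895 against 117 CPM at D26. The 5 genes TBR1, PPP1R17, SLC17A6, LHX9 and LHX1 of glutamatergic neurons summed to 151 against 1039 CPM and 227 against 1075 CPM. Other lists moved as well: 5 progenitor genes summed to 990 against 492 CPM and 774 against 379 CPM, 6 genes of the rostral patterning center to 701 against 179 CPM and 878 against 275 CPM, and the 5 IRX-list genes to 22.6 against 161 CPM and 21.4 against 92.8 CPM. Their part in the differences was not tested. The median depth was 8247 against 7149.5 UMIs per cell at D24 and 9729 against 8401 at D26.

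FGF3 and FGF19 were higher in cells with more GNRH1. At D24 FGF3 was at 0.490 CPM in the 7797 cells with no GNRH1 UMI, 4.80 in the 965 cells above 0 and under 3000 CPM, 51.2 from 3000 to 10000, 82.2 from 10000 to 30000 and 97.7 in the 115 cells at 30000 or more. FGF19 was at 0.777, 6.69, 101, 144 and 175 CPM in the same groups, and for both genes each of the 3 upper groups overlapped its neighbor in its interval. At D26 the 3 upper groups were not in order for FGF3, at 80.8, 64.7 and 152 CPM, and the first 2 of them did not differ for FGF19, at 65.3, 64.4 and 125 CPM. These steps were set after the values were seen.

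The DLX genes and GNRH1 could be separated in part. In cells with at least 300 CPM of the DLX list and no GNRH1 UMI (136 at D24 and 278 at D26), FGF3 was at 20.5 CPM (12.9 to 31.0) and 44.7 CPM (36.8 to 53.9), and FGF19 at 26.1 CPM (17.3 to 37.7) and 37.9 CPM (30.6 to 46.3). Cells with no UMI of either were at 0.0878 and 0.249 CPM for FGF3. GNRH1-high cells under the same DLX limit (50 at D24 and 129 at D26) had FGF3 at 58.3 CPM (39.3 to 83.3) and 35.0 CPM (26.2 to 45.8), and FGF19 at 95.3 CPM (70.5 to 126) and 37.7 CPM (28.5 to 48.8). The few GNRH1-high cells with no DLX-list UMI at all had 0 FGF3 UMIs in 12 cells at D24, an exact upper limit of 43.9 CPM, and 6 in 57 cells at D26, or 14.0 CPM (5.12 to 30.4), against 116 CPM (109 to 123) in the 870 GNRH1-high cells above the DLX limit. Their FGF19 level was 23.8 CPM (2.88 to 85.9, 2 UMIs) and 6.98 CPM (1.44 to 20.4, 3 UMIs). FGF3 and FGF19 were thus found in DLX-list cells without a GNRH1 UMI and in GNRH1-high cells under the DLX limit. The latter group includes the cells with no DLX-list UMI, which held 0 of its 30 FGF3 UMIs at D24 and 6 of 53 at D26. For FGF19 they held 2 of 49 and 3 of 57 UMIs. At these depths 300 CPM is a few UMIs per cell. Most of the signal under the limit thus lay in cells that did carry a DLX-list UMI. In GNRH1-high cells above the limit FGF3 was at 83.7 CPM (72.9 to 95.7) at D24, an interval that overlaps that under it, while at D26 the FGF3 intervals did not overlap. FGF19 above the limit was at 153 CPM (138 to 169) at D24 and 98.5 CPM (92.1 to 105) at D26. Neither FGF19 interval overlaps that under the limit.

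**Figure D4:**
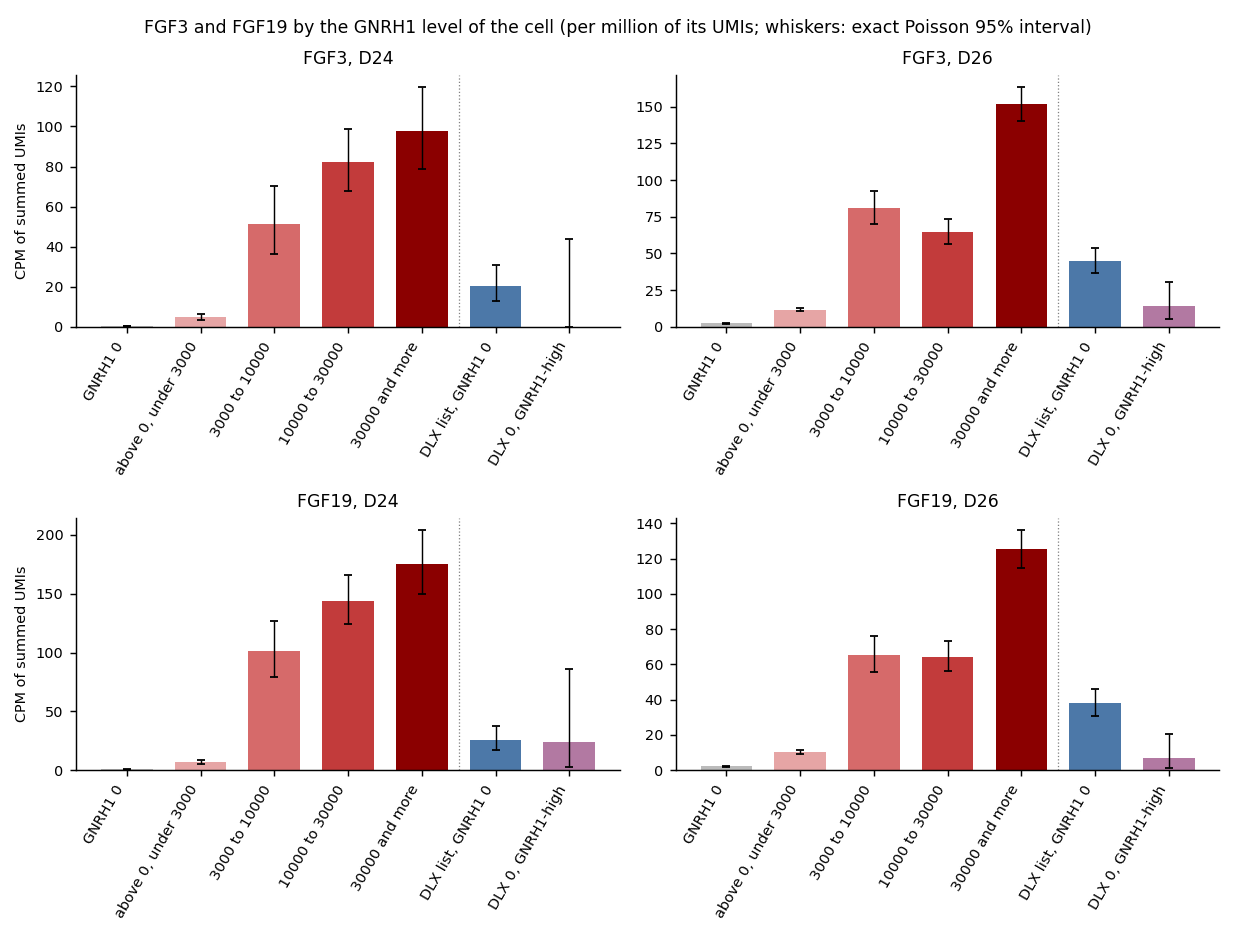
FGF3 (top) and FGF19 (bottom) at D24 (left) and D26 (right) by the GNRH1 level of the cell in CPM, and, right of the dotted line, in DLX-list cells without a GNRH1 UMI and in GNRH1-high cells without a DLX-list UMI; vertical axes are CPM of summed UMIs from 0, whiskers exact Poisson 95% intervals. At D26 FGF3 was at 44.7 CPM in DLX-list cells lacking GNRH1 UMIs and 14.0 CPM in GNRH1-high cells lacking DLX-list UMIs.

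The 2 ligands were found in the same cells. At D26, 346 of 564 cells with an FGF19 UMI also had an FGF3 UMI (61.3%, 57.2% to 65.4%), against 1.80% of cells without one, and at D24 the shares were 49.8% and 0.632%, at median depths of 9749.5 against 8433 UMIs at D26 and 8296 against 7158.5 at D24. Of GNRH1-high cells, 38.6% had an FGF3 UMI at D24 and 31.6% at D26, and 52.8% and 34.4% an FGF19 UMI; with cells sampled down to 1500 UMIs these shares were 10.1%, 12.4%, 18.8% and 9.91%. Free RNA in droplets and doublets were not estimated here, so such shares have no measured floor. In the TBR1 and PPP1R17 class of glutamatergic neurons (at least 500 CPM of that list and below the other limits) 0.0591% and 0.197% of cells had an FGF3 UMI, at median depths of 7210 and 8486 UMIs. In that class there were 3.81 FGF3 UMIs per 1000 GNRH1 UMIs at D24 and 3.13 at D26, with intervals of 1.04 to 9.75 (4 FGF3 UMIs) and 1.79 to 5.09 that include the 3.14 and 3.43 of GNRH1-high cells. For FGF19 there were 8.57 and 3.33 per 1000 GNRH1 UMIs, against 5.67 and 2.95. The shares in this class are given for comparison only. Whether these UMIs came from free RNA, doublets or expression in the cells was not tested.

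At D22, before most GNRH1 expression, FGF8, FGF17 and FGF18 overlapped in cells. Of 1675 FGF17 UMIs, 50% lay in 116 of 9523 cells, with up to 55 in 1 cell, so that its counting interval is too narrow; for FGF8 and for FGF18 50% lay in 146 cells, with up to 30 and 13 in 1 cell. FGF17 had a UMI in 20.3% (17.1% to 23.9%) of the 571 cells with an FGF8 UMI and in 7.74% of the rest, and FGF18 in 162 of the 809 cells with FGF17 (20.02%) and in 4.79% of the rest, at median depths of 13224 against 12112 and 14380 against 12017.5 UMIs. In the 132 cells with 3 or more FGF17 UMIs, FGF8 was at 54.6 against 6.08 CPM and FGF18 at 56.8 against 6.07 CPM elsewhere. STMN2 was at 287 CPM in them and 1312 CPM elsewhere. Apart from FGF8 and FGF18, the genes that led these cells were TAGLN, TPM1, MYL9, ANXA1, TPBG, IER3, NPM3 and IGFBP5, among them several of the actin cytoskeleton. FGF9 was found as often with FGF8 as without it at D10_dSMADi, where it had a UMI in 16.4% (13.7% to 19.3%) of cells with FGF8 and 16.6% (14.9% to 18.4%) of cells without.

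FGFR2 and FGFR3 were highest in another class of D22 cells. In the 618 cells with at least 500 CPM of IRX1, IRX2, IRX3, IRX5 and CRABP1, genes of more caudal neural tissue, FGFR1 was at 115 CPM (108 to 122), FGFR2 at 12.2 CPM (9.97 to 14.8) and FGFR3 at 24.6 CPM (21.3 to 28.1). Most of these cells passed through CRABP1: without it the class held 168 cells, with FGFR1 at 168, FGFR2 at 17.6 and FGFR3 at 39.8 CPM. In the DLX-list class they were at 70.9, 2.12 and 1.33 CPM, in the dividing class at 68.8, 1.47 and 2.31 CPM (72.2, 2.33 and 3.59 CPM where the IRX class is set without CRABP1), and in the TBR1 and PPP1R17 class at 27.7, 0.141 and 0.494 CPM. FGF8 was at 11.95 CPM (9.61 to 14.7) in the DLX-list class, 8.07 in the dividing class, 0.475 (0.129 to 1.22) in the IRX class and 0.706 in the TBR1 and PPP1R17 class. FGF8 was thus low in the class with the highest FGFR2 and FGFR3 levels, with intervals that overlap between the IRX class and the TBR1 and PPP1R17 class. FGFR1 was at 27.7 CPM or more in each of these classes, and at 73.9 against 55.1 CPM in the 71 cells with 3 or more FGF8 UMIs. FGF17 was highest in the cells of no listed class, at 16.8 CPM. FGFR2 had a UMI in 16.6% of the 319 cells with an FGFR3 UMI and in 1.18% of the rest. The 23 cells with 3 or more FGFR3 UMIs were led by NR2F1 (515 against 35.9 CPM), SFRP2 and WLS.

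**Figure D5:**
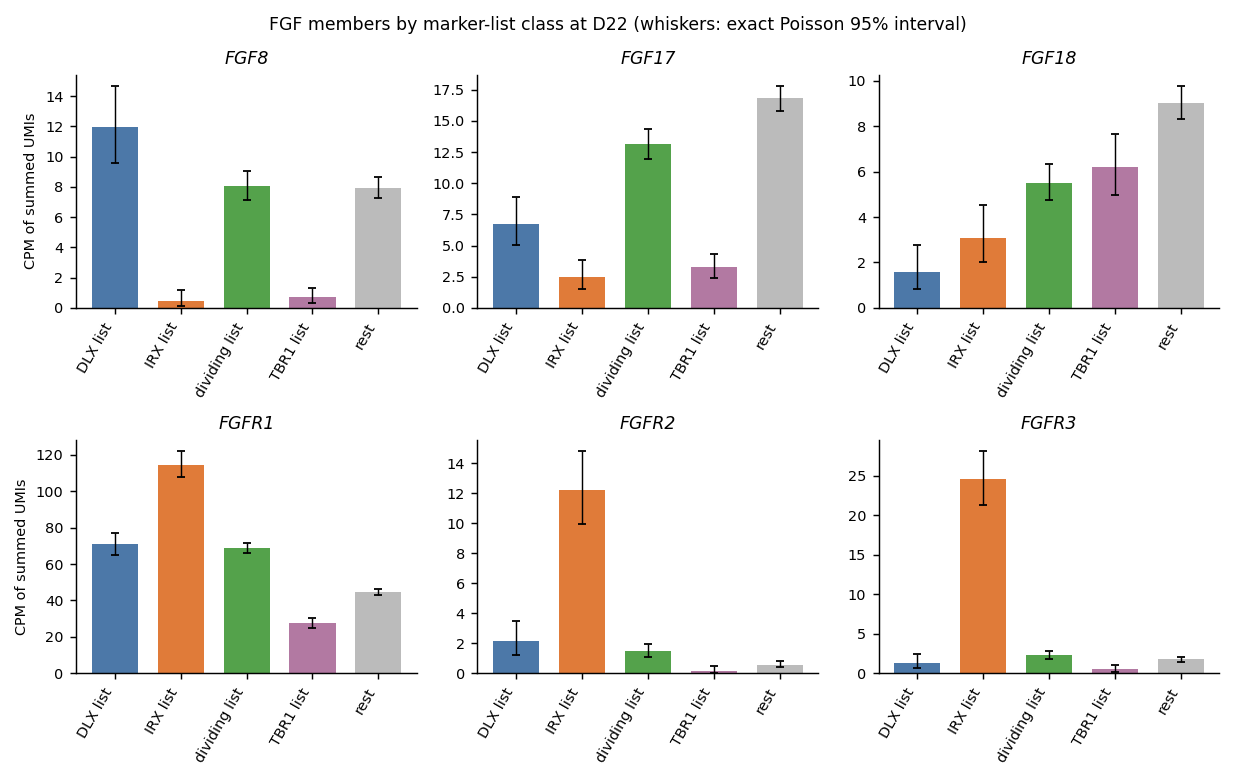
Level of 6 members in classes of D22 cells defined by summed marker genes (DLX, IRX, dividing and TBR1 lists, and the remaining cells), in CPM of summed UMIs (vertical axes from 0, a separate scale for each gene); whiskers are exact Poisson 95% intervals. FGFR2 and FGFR3 stand at 12.2 and 24.6 CPM in the IRX class and at most 2.31 CPM in the other classes as plotted, while FGF8 is 0.475 CPM in the IRX class.

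FGF18 was higher in the IRX class at the later days, though most of its UMIs lay outside it. At D24 it was at 30.0 CPM (23.7 to 37.5, 77 of 222 UMIs) in the 351 cells of that class and 2.11 CPM in the TBR1 and PPP1R17 class, and at D26 at 11.2 CPM (7.84 to 15.5, 36 of 120 UMIs) in 377 cells and 0.568 CPM. FGF9 was broad at both days, with 27.8, 14.8 and 15.7 CPM in the DLX, IRX and TBR1 classes at D24 and 36.1, 24.3 and 31.2 CPM at D26. The class limits were chosen after the values were seen, and at D22 490 cells lay within 1.5-fold of the IRX limit. The D26 level of FGF18 in the IRX class was higher with doubled limits (given further on).

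Of the 44 pathway genes, 35 could be compared between GNRH1-high and other cells at D24, of which 3 were higher and 4 lower, against 2.31% and 4.67% of all genes. FGF14, an intracellular homolog that acts on sodium channels (36.6 against 10.7 CPM), DUSP6 (29.4 against 6.86) and, at a low level, ANOS1 (2.62 against 0.8496) were higher, and FLRT3, an adhesion protein that binds FGF receptors (22.9 against 65.9), SPRY2 (13.7 against 28.8), FLRT2 (1.31 against 4.10) and GPC4 (0 UMIs against 143) were lower, with a median log2 ratio of -0.06 over the list against -0.07 over genes at 50 CPM or more. At D26, 2 of 37 were higher and 3 lower, against 2.7% and 3.93% of all genes: DUSP6 (25.1 against 11.2 CPM) and GPC3 (4.91 against 0.786) were higher and FLRT3 (27.6 against 69.2), HS6ST2 (4.24 against 10.2) and GPC4 (0.193 against 0.730) lower, with medians of -0.07 and -0.06. DUSP6 and FLRT3 kept their direction at both days, as did GPC4 at a low level. ANOS1, FLRT2, GPC4 and GPC3 were named after their values were seen. FGF4, which lies between FGF19 and FGF3, had 0 UMIs in both libraries, and the flanking gene CCND1 was lower in GNRH1-high cells, at 1.63 against 11.4 CPM at D24 and 0.770 against 2.45 CPM at D26.

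Over the 8 libraries, the genes whose log2(CPM + 1) followed a member most closely were found among 10711 genes. For FGF3 they included GRM7 (Pearson r 0.997) and PCP4L1, and they were, for FGF19 BCL11A (0.99), CALB1 and MFSD13A, for FGF8 SOX21 (0.99), COL2A1 and IGFBP5, and for FGF17 GSX2 (0.99), ATOH7 and KIF19. For FGFR1 they were TOR1AIP1 (0.99), WDR75 and ASB1, for FGFR2 PLIN2 (0.98), SALL3 and LINC01896, for FGFR3 AC091729.3 (0.97), CCN2 and UNC119, for FGF2 CNFN (0.998), UBTD1 and RREB1, and for FGF9 NCBP3 (0.99), NCOA6 and CPLANE1. With 8 points in 2 sets of libraries of unlike depth and annotation, such values are high for many genes and describe only the shape of the series. FGF18 reached 10 CPM in no library and was not compared in this way.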

How the data were processed

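Single-cell RNA sequencing with the 10x Genomics 3′ kit was available for 8 libraries of WA09 cells. The authors deposited UMI counts per gene and barcode, not normalized, for barcodes that their pipeline had called as cells. Reads had been aligned to GRCh38 per the labels; per the file headers, the tagged libraries, which were separated by their tags, were counted with Cell Ranger 6.1.2 and the later ones with 3.1.0. Deposited features and barcodes name the rows and columns.

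Cells were kept by the limits on UMIs, genes, complexity and mitochondrial share in the study's methods. At D0 the stated complexity limit of 0.85 leaves 1 of 1292 barcodes and was not applied there. No doublet caller was run. UMIs were summed over cells and scaled to the group total (CPM), with exact Poisson intervals; for a ratio the interval is the exact binomial one for how the UMIs divide between both groups, and shares of cells Clopper-Pearson intervals, all at 95% and for counting error only. Intervals treat UMIs as independent. No test was possible without replicates. Genes with at most 3 UMIs in both groups got no ratio. Shares were thinned to 1500 UMIs per cell at D22 to D26 and 10000 before; no kept cell was shallower. Marker-list classes were assigned in the order GNRH1-high, DLX, IRX, dividing (1000 CPM), TBR1 and PPP1R17, rest. The leading genes of cells rich in a member are the 10 with the largest ratio after adding 10 CPM to both sides.

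All 10 members are named. Other pathway genes are named where they had 10 CPM in a compared group and a 2-fold difference, at most 8 per comparison, and the 3 genes most like each member that reached 10 CPM in a library, by Pearson r. One result under this rule is not reported here. The members and lists were chosen with earlier results of these data known. On simulated data, the coverage of the ratio's interval was checked. Alternatives changed the cell filter, the scaling, the weighting, the depth and the GNRH1 limit. Python 3.11.15 with NumPy 2.4.6, SciPy 1.17.1, pandas 2.3.3 and matplotlib 3.10.9 was used.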

Additional observations from a re-analysis of the deposited data

Results flagged for a closer look

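FGFR1 lay on opposite sides of no change with XAV939 at the 2 days. Its log2 ratio was 0.16 at D5 (192 against 172 CPM) and -0.43 at D10 (123 against 166 CPM), with counting intervals that both leave out 0. With 1 library per condition the difference between the days was not tested. At D10 the gap was about as large without neuron-rich cells, at 125 CPM with XAV939 against 167 CPM without it.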

How the results depend on the processing

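Each comparison was repeated without a filter on cells, with doubled UMI and gene minimums and a lower mitochondrial limit, without the 5% of cells with most UMIs, with other totals, with the median gene set to no change, with equal weight per cell, after thinning, and with a 1.5-fold limit. Of the 33 member ratios called changed, 1 changed sign: FGF18 with XAV939 at D10 became -0.20 on the log2 scale without neuron-rich cells, an alternative chosen after seeing the data. That value is near no change and rests on few UMIs. The number of members called moved by over 1.5 times as follows. With the 1.5-fold limit it was 5 with XAV939 at D5 (2 at 2-fold), 5 from D5 to D10 with XAV939 (3 at 2-fold) and 6 from D24 to D26 (3 at 2-fold). From D5 to D10 without XAV939 it was 1 instead of 2 under the stricter filter, without mitochondrial and ribosomal genes in the total, or with the median set to no change, since FGF9 fell under 2-fold. From D24 to D26 it was 5 without a filter on cells, where FGF8 and FGF17 were added. From D5 to D10 with XAV939, FGF18 was called higher and FGF17 and FGFR2 lower at 2-fold, among 9 members tested. Of 21859 genes tested there, 1874 were called higher and 817 lower. The share of all genes was not counted at the 1.5-fold limit or under the other alternatives. FGF3 and FGF19 kept their direction in GNRH1-high cells under all alternatives but moved in size. With a limit of 10000 CPM the log2 ratios were 5.84 and 5.93 at D24 and 3.75 and 3.76 at D26, against other cells without a GNRH1 UMI 7.34 and 7.53, and 5.46 and 5.37, and against the TBR1 and PPP1R17 class, added after seeing the data, 10.02 and 9.70, and 8.81 and 8.50. Setting the median gene to no change shifts log2 ratios by up to 0.16 from D0 to D5, 0.11 from D5 to D10 (0.13 with XAV939), 0.14 from D24 to D26 and 0.18 between GNRH1-high cells of D24 and D26. Thinning took FGF18 under the 2-fold limit from D0 to D5 (-0.58) and from D22 to D24 (-0.77). Without a filter on cells, FGF8 and FGF17 were at -4.56 and -3.45 from D22 to D24, against -5.47 and -4.61. With cells thinned they were at -6.74 and -4.72. The FGF18 level in the IRX class at D26 was 20.8 CPM with doubled limits and 11.4 CPM without CRABP1. FGFR1, FGFR2 and FGFR3 in the IRX class at D22 were 168, 17.6 and 39.8 CPM without CRABP1. Counting depth limits statements on members with few UMIs, such as FGF17 before D22 and FGF8 after it. No paired analysis was possible because each condition is 1 library.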

Other observations

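At D22 the 44 cells with 3 or more FGF19 UMIs were led by GNRH1 (241 against 4.63 CPM in other cells), DLX6-AS1 (259 against 10.6), MGST1, DLX5 (79.0 against 10.9), FGF3 (31.3 against 0.116, from 21 UMIs), SCGN and GAD2. These are sums over the 44 cells: in single cells, 7 of the 310 cells with an FGF19 UMI had an FGF3 UMI (2.26%), and 349 of 503 FGF19 UMIs lay in cells of no listed class (5.32 CPM) against 45 in the DLX-list class (5.98 CPM). At this day 6 cells passed the GNRH1 limit. STMN2 was at 1280 CPM in the 44 cells and 1294 CPM in the others, and NR2F1, which led the cells rich in FGFR3, had 0 UMIs in them.

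Of the 4 intracellular FGF homologs, which are not secreted, 3 rose from D22 to D24, against 28.2% of all genes called in either direction, and FGF11 did not pass (1.16 CPM at D22 and 1.07 at D24). FGF12 was at 1.17 CPM at D22 and 3.98 at D24, FGF13 was at 46.4 CPM at D22 and 128 at D24, and FGF14 at 1.95 at D22, 11.9 at D24 and 58.5 at D26. In GNRH1-high cells FGF14 was at 36.6 CPM at D24 and 103 at D26. It was called higher there than in other cells at D24, while none of the 4 homologs was called at D26. SPRY1, a feedback gene, was at 459 CPM at D22, 69.1 at D24 and 15.1 at D26, and GPC3 at 109 CPM at D22 and 1.48 at D24.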
